A study of Homo sapiens with 15 samples.

Results

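The genes described here encode the ID proteins ID1, ID2 and ID3 and the E proteins TCF3, TCF4 and TCF12, 6 genes chosen by symbol from the 57820 gene identifiers in the data. They were followed in RNA-seq libraries of MOLM-13, U937 and HL-60, all established human acute myeloid leukemia (AML) cell lines, in which the ubiquitin ligase RNF5 was depleted. The control cells carried the empty lentiviral vector pLKO and the RNF5-KD cells an shRNA against RNF5 in that vector (shRNF5). There were 15 libraries, 3 pLKO and 2 shRNF5 from MOLM-13, 2 of each from U937 and 3 of each from HL-60. The sample labels place the RNA at 7 days after knockdown and the series design at 5 days, and which of the RNF5 hairpins was sequenced is not named. The labels name a kit that reads transcript 3′ ends, whereas the study's methods name a directional poly(A) kit. Nothing in the sources says that replicates came from separate transductions, so p-values measure the spread between these libraries, which may be technical. In bulk RNA, fewer cells of a type and less RNA per cell cannot be told apart.

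E proteins are basic helix-loop-helix (bHLH) transcription factors that bind DNA as dimers at the E-box, a short motif written CANNTG. They pair with each other or with tissue-restricted bHLH factors, and they are best known for driving B and T lymphocyte and plasmacytoid dendritic cell programs and for switching on inhibitors of the cell cycle. ID proteins have the helix-loop-helix but lack the basic region that touches DNA. An E protein bound by an ID protein cannot bind the E-box, so the level of IDs relative to E proteins sets how much E protein is free. ID genes are classical targets of BMP signalling, and ID2 is known in blood for its part in innate lymphoid, natural killer and dendritic cells.

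On GRCh37, the build of the hg19 genome used by the authors, ID2 (ENSG00000115738.5) lies at chr2:8818975-8824591 on the forward strand, ID1 (ENSG00000125968.7) at chr20:30193086-30194318 on the forward strand and ID3 (ENSG00000117318.8) at chr1:23884417-23885992 on the reverse strand. TCF3 (ENSG00000071564.10) lies at chr19:1609290-1652614 on the reverse strand, TCF12 (ENSG00000140262.13) at chr15:57210821-57591479 on the forward strand and TCF4 (ENSG00000196628.9) at chr18:52889416-53332018 on the reverse strand. Genes that share exon bases with ID2 or TCF4 were listed at 0 in every library. Since the binding motif of this family can be read directly in DNA, the 250 bases before the start of each gene's canonical transcript were searched for CANNTG, which matches itself on the other strand. Only ID2 among the 6 genes held a match, a CAGCTG starting 205 bases before the start. The stretch around it is shown because it is the E-box match in these 6 windows, with the match in capitals, and lies at chr2:8821969-8821998 on the forward strand of GRCh37.
ID2: tatttaccacccCAGCTGggctcgcgcccc
Exons of another ID2 transcript and of the antisense gene ID2-AS1 overlap this stretch. CANNTG was found in 53.1% of the 14384 promoters of the same length among genes above 0 in any library, and CAGCTG in 12.03%. A match is a description of the letters and does not show binding.

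Values are normalized read counts, scaled by the authors within each line and rounded, with genes that failed their filter listed at 0. Between 9700000 and 63800000 reads were counted per library, by an estimate from the values. The MOLM-13 shRNF5 libraries, at 63800000 and 24400000 reads, were deeper than the MOLM-13 pLKO libraries, at 9700000 to 15300000, and the part of depth in the MOLM-13 results was not tested. RNF5, the target of the knockdown, fell in every line, from 1017 to 1223 in the pLKO libraries to 76 and 81 with shRNF5 in MOLM-13, from 648 and 843 to 46 and 74 in U937 and from 506 to 689 to 37, 133 and 43 in HL-60. The HL-60 shRNF5 library with 133 kept the most RNF5. The lines showed the myeloid identity of their labels, with all 8 myeloid markers (such as SPI1, CEBPA and MPO) above 0 in each line and all 4 T lymphoid markers at 0. Of 4 B lymphoid markers, MOLM-13 had 1 above 0, U937 had 3 and HL-60 had 1, and of 5 erythroid markers 1 was above 0 in U937 and none in MOLM-13 or HL-60. These counts do not give levels. The B lymphoid marker of MOLM-13 was PAX5, at a pLKO mean of 1097.3, beside 1337.3 for MPO in that line. In U937, the pLKO mean of MPO was 37. Of 8 monocyte and macrophage markers, MOLM-13 had 5 above 0, U937 had 6 and HL-60 had 3.

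ID2 was higher with shRNF5 in all 3 lines, with no overlap between the libraries of the constructs, and passed the thresholds in U937 and HL-60. TCF4 was lower in every line, likewise without overlap, and passed in HL-60. TCF3 and TCF12, the E protein genes with the higher values, passed in no line. ID1 was above 0 only in MOLM-13 and U937, and ID3 was listed at 0 in all 15 libraries, as was ID4, the fourth member of the family. A gene at 0 throughout a line was filtered out there. Whether its expression was low was not tested, so no level or limit can be given for it. To be called, a gene needed a limma Benjamini-Hochberg adjusted p under 0.1 together with a log2 fold change beyond 0.4 in either direction, on the log2(normalized read count + 1) scale, which understates changes at low values. By this rule 2.04% of the 13026 genes tested in MOLM-13 changed (1.03% rose and 1.01% fell). The share was 15.7% of 13165 genes for U937 (6.92% rose and 8.74% fell) and 25.9% of 12570 for HL-60 (13.6% rose and 12.3% fell). Of the 6 genes described here, 0 of 5 tested were called in MOLM-13, 1 of 5 (ID2) in U937 and 2 of 4 (ID2 and TCF4) in HL-60. At an unadjusted p under 0.05, without a fold limit, ID1, ID2 and TCF4 would pass in MOLM-13, beside 17% of all genes, ID2 and TCF3 in U937, beside 27.1%, and ID2, TCF4 and TCF12 in HL-60, beside 35%. The constructs did not overlap for 38.7% of all MOLM-13 genes tested, 59.2% of those of U937 and 38.5% of those of HL-60, so separation of so few libraries is common in these data.

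**Figure D1:**
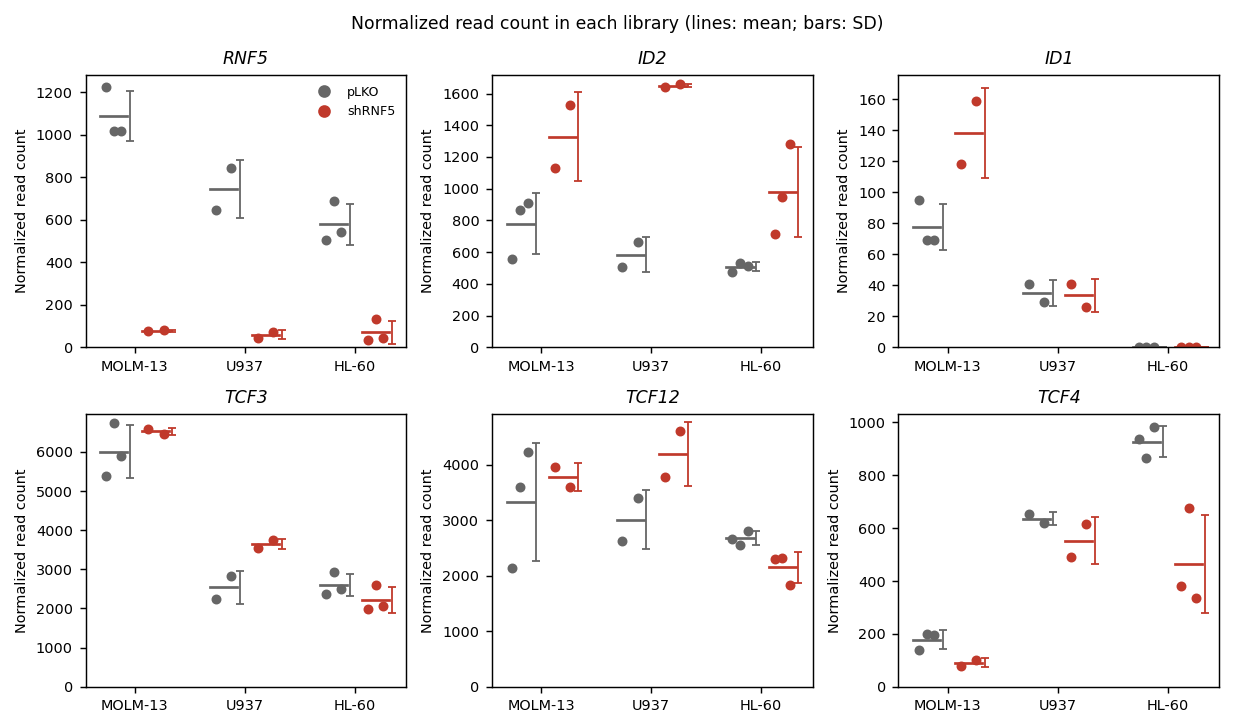
Normalized read counts (y axis, from 0) of RNF5 and of the 5 ID and E protein genes above 0, in each library of each line (x axis); gray points are pLKO and red points shRNF5, with the mean as a line and the SD as a bar. ID2 lies higher and TCF4 lower with shRNF5 in each line without overlap, while TCF12 lies higher in U937 and lower in HL-60.

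Among the ID genes listed above 0, ID2 had the highest values. In U937, its normalized read counts were 505 and 663 in the pLKO libraries and 1642 and 1657 in the shRNF5 libraries. Both shRNF5 libraries thus stood far over either control, and differed little from each other. The mean went from 584.0 ± 111.7 (SD, n = 2) to 1649.5 ± 10.6 (SD, n = 2), a log2 fold change of 1.51 ± 0.26 (SE) with a limma adjusted p of 0.0179. In HL-60, the pLKO libraries had 478, 534 and 512 and the shRNF5 libraries 712, 945 and 1280. The controls were tightly grouped and the shRNF5 libraries spread widely above them. The mean rose from 508.0 ± 28.2 (SD, n = 3) to 979.0 ± 285.5 (SD, n = 3), by 0.91 ± 0.19 (SE) on the log2 scale, with a limma adjusted p of 0.0101. In MOLM-13, ID2 had 560, 868 and 912 with pLKO and 1132 and 1526 with shRNF5. Here the pLKO libraries varied by more than the gap to the lower shRNF5 library. The log2 fold change was 0.78 ± 0.25 (SE) with a limma adjusted p of 0.182, so the difference in MOLM-13 did not pass.

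The U937 call of ID2 held without pLKO replicate 3 and was lost without any other of the 4 libraries. Each of these fits leaves 1 library in an arm, so the spread comes from the other construct and the lone library is assumed to vary like it. Without pLKO replicate 2 the limma adjusted p was 0.256, without shRNF5 replicate 1 it was 0.519 and without shRNF5 replicate 3 it was 0.16, while over all 4 such fits the log2 fold change stayed between 1.31 and 1.71. In the fits that lost the call, only 0, 0 and 6 genes of all those tested were called in U937. In HL-60, ID2 was called in all 15 alternative fits, with adjusted p-values up to 0.0451 and log2 fold changes from 0.69 to 1.11. The response of ID2 did not differ detectably between lines in a fit over all 15 libraries. It was 0.60 (95% confidence interval -0.13 to 1.34) larger in log2 fold change in U937 than in HL-60, with a limma adjusted p of 0.203. MOLM-13 minus U937 was -0.72 (-1.50 to 0.05, adjusted p of 0.213) and MOLM-13 minus HL-60 was -0.12 (-0.82 to 0.58, adjusted p of 0.867), intervals that leave room for sizeable differences.

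ID1, the ID gene most closely tied to BMP signalling, was a low-level gene. In MOLM-13, it had 95, 69 and 69 with pLKO and 118 and 159 with shRNF5. The values did not overlap, but those of the pLKO libraries rested on an estimated 27 to 50 reads each. The log2 fold change was 0.83 ± 0.29 (SE), of a size like that of ID2 in the same line, with a limma adjusted p of 0.223 that did not pass. In U937, ID1 had 41 and 29 with pLKO and 41 and 26 with shRNF5, on 23 to 40 estimated reads. These values overlapped, with a log2 fold change of -0.08 (95% confidence interval -1.34 to 1.19, limma adjusted p of 0.947). In a fit over the 9 MOLM-13 and U937 libraries, added after the values were seen, the ID1 responses differed by 0.90 (95% confidence interval -0.29 to 2.09, limma adjusted p of 0.350), against 4.25% of the 11791 genes of that fit called different.

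TCF4, the E protein that defines plasmacytoid dendritic cells, fell in HL-60. Its pLKO libraries had 936, 864 and 982 and its shRNF5 libraries 381, 676 and 334. The shRNF5 library at 676 lay between the other shRNF5 libraries and the controls. This library kept the most RNF5, and its ID2 value of 945 was the middle one of the shRNF5 libraries. A relation of either gene to the remaining RNF5 was not tested. The mean went from 927.3 ± 59.5 (SD, n = 3) to 463.7 ± 185.4 (SD, n = 3), a log2 fold change of -1.07 ± 0.23 (SE) with a limma adjusted p of 0.0103. The call was made in all 15 alternative fits, with adjusted p-values up to 0.0524 and log2 fold changes from -1.37 to -0.87. In MOLM-13, the counts were 139, 200 and 197 with pLKO and 80 and 103 with shRNF5. The groups did not overlap, and the log2 fold change of -0.95 ± 0.27 (SE) was close in size to that in HL-60, but the limma adjusted p of 0.158 did not pass. With single libraries left out it passed without pLKO replicate 1, at -1.12 with a limma adjusted p of 0.0629, and not in the other 4 fits, with adjusted p-values from 0.186 to 0.787. In U937, TCF4 had 653 and 619 with pLKO and 491 and 615 with shRNF5. The higher shRNF5 library lay just under the lower control, and the log2 fold change was -0.21 ± 0.27 (SE, limma adjusted p of 0.651).

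TCF3 was the E protein gene with the highest mean level per transcript length in the controls of each line. It was near its control level in MOLM-13, where the pLKO libraries had 5388, 6732 and 5884 and the shRNF5 libraries 6588 and 6463. The shRNF5 values fell inside the range of the controls, with a log2 fold change of 0.13 (95% confidence interval -0.20 to 0.45). In U937, TCF3 had 2248 and 2830 with pLKO and 3555 and 3741 with shRNF5. These did not overlap, but the log2 fold change of 0.53 ± 0.24 (SE) had a limma adjusted p of 0.184. In HL-60, it had 2369, 2927 and 2505 with pLKO and 1997, 2605 and 2073 with shRNF5. The groups overlapped, at a log2 fold change of -0.23 ± 0.14 (SE) and a limma adjusted p of 0.266.

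TCF12, the E protein that serves with TCF3 in early lymphocytes, had the widest controls in MOLM-13, at 2150, 3599 and 4242, and 3962 and 3606 with shRNF5. The groups overlapped, with a log2 fold change of 0.24 ± 0.26 (SE) and a limma adjusted p of 0.676. In U937, TCF12 had 2634 and 3398 with pLKO and 3787 and 4605 with shRNF5. The log2 fold change was 0.48 ± 0.25 (SE, limma adjusted p of 0.241), without overlap. In HL-60, it had 2671, 2563 and 2815 with pLKO and 2306, 2317 and 1835 with shRNF5. All shRNF5 libraries lay below all controls, and the log2 fold change of -0.32 ± 0.13 (SE) had a limma adjusted p of 0.0949, under 0.1, but was smaller than the fold limit of 0.4.

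**Figure D2:**
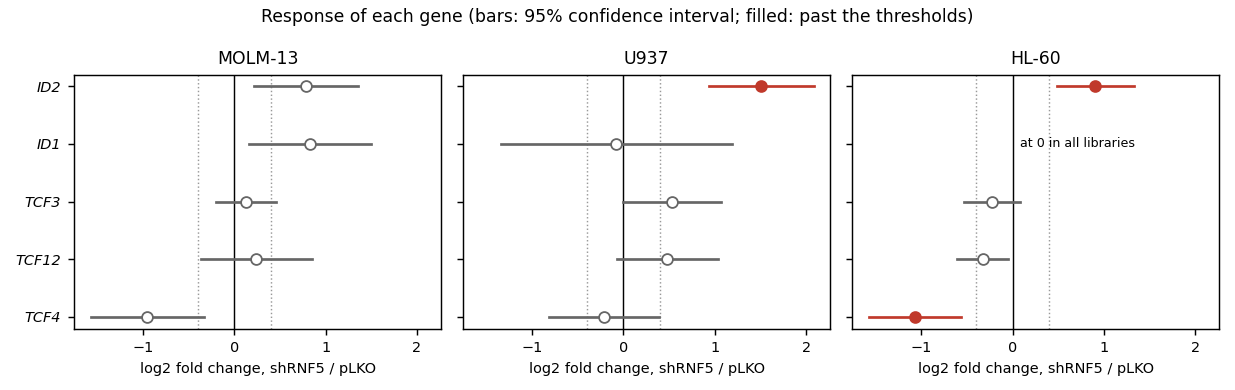
The log2 fold change (x axis, shRNF5 over pLKO) of 5 genes (y axis) in each line, with the 95% confidence interval from limma; filled red points passed both thresholds and dotted lines mark the fold limit. ID2 is filled in U937 and HL-60 and TCF4 in HL-60, and the ID2 intervals lie above 0 in all 3 lines.

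All 3 E protein genes responded differently in U937 and HL-60. They were tested in one limma fit over the 15 libraries and the 11072 genes above 0 in all lines, at adjusted p under 0.1. In that test 37.2% of all genes differed between U937 and HL-60, so such a difference is frequent in this pair. TCF3 differed by 0.76 ± 0.23 (SE) in log2 fold change, U937 minus HL-60, with an adjusted p of 0.0219. This difference was called in all 21 alternative fits, with adjusted p-values up to 0.0909. TCF12 differed by 0.81 ± 0.32 (SE, adjusted p of 0.0693) and TCF4 by 0.86 ± 0.37 (SE, adjusted p of 0.0950). These were called in 14 and 5 of 21 alternative fits, and TCF4 was lost even without single MOLM-13 libraries. For TCF3 and TCF12 the sign itself differed, higher with shRNF5 in U937 and lower in HL-60, whereas TCF4 was lower in both. Between MOLM-13 and U937, where 15.4% of genes differed, and between MOLM-13 and HL-60, where 8.82% did, 0 of the 4 genes that could be tested differed, with adjusted p-values from 0.213 to 0.675 and from 0.281 to 0.882. At an unadjusted p under 0.05 the count was 0 in both pairs.

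Levels of different genes were set side by side after scaling the summed values of each library to 1000000, per kb of the canonical transcript. This scale suits a poly(A) library and not one that reads 3′ ends. In the MOLM-13 controls, TCF3 led with 49.8 ± 5.2 (SD, n = 3), followed by ID2 with 23.6 ± 6.0 and TCF12 with 21.5 ± 7.1, which did not differ beyond their spread. ID1 followed with 3.11 ± 0.59 and TCF4 came last with 0.875 ± 0.171. In the U937 controls, TCF3 with 33.1 ± 6.0 (SD, n = 2), TCF12 with 30.4 ± 6.0 and ID2 with 27.7 ± 5.8 overlapped, above TCF4 with 4.87 ± 0.09 and ID1 with 2.19 ± 0.49. In the HL-60 controls, the order was TCF3 with 33.9 ± 3.4 (SD, n = 3), TCF12 with 27.1 ± 1.4, ID2 with 24.1 ± 1.0 and TCF4 with 7.12 ± 0.50, with no overlap between neighbours. The lines were normalized separately, so levels across lines are a description only. On this scale TCF4 ranged from 0.875 in MOLM-13 to 7.12 in HL-60, the widest ratio among the E protein genes but not the widest difference.

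With shRNF5, ID2 came first per kb in U937, at 75.6 ± 4.6 (SD, n = 2) over TCF3 at 45.9 ± 4.2. It had the highest mean in HL-60, at 45.7 ± 12.4 (SD, n = 3) over TCF3 at 28.7 ± 4.8. In HL-60 the lowest ID2 value, 33.6, lay under the highest TCF3 value, 34.2. In MOLM-13, ID2 at 40.8 ± 9.2 (SD, n = 2) stayed under TCF3 at 54.9 ± 0.1. With the summed length of all annotated exons in place of the canonical transcript, ID2 and TCF12 changed places in the MOLM-13 controls. TCF4 and ID1 changed places in U937 with both constructs, and the other ranks stayed. Without division by length, ID2 lost its first place. In mean normalized read counts with shRNF5, U937 had 1649.5 for ID2, 3648.0 for TCF3 and 4196.0 for TCF12. HL-60 had 979.0, 2225.0 and 2152.7 in the same order. With pLKO, TCF12 then had a higher mean than TCF3 in U937 (3016.0 against 2539.0) and HL-60 (2683.0 against 2600.3).

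**Figure D3:**
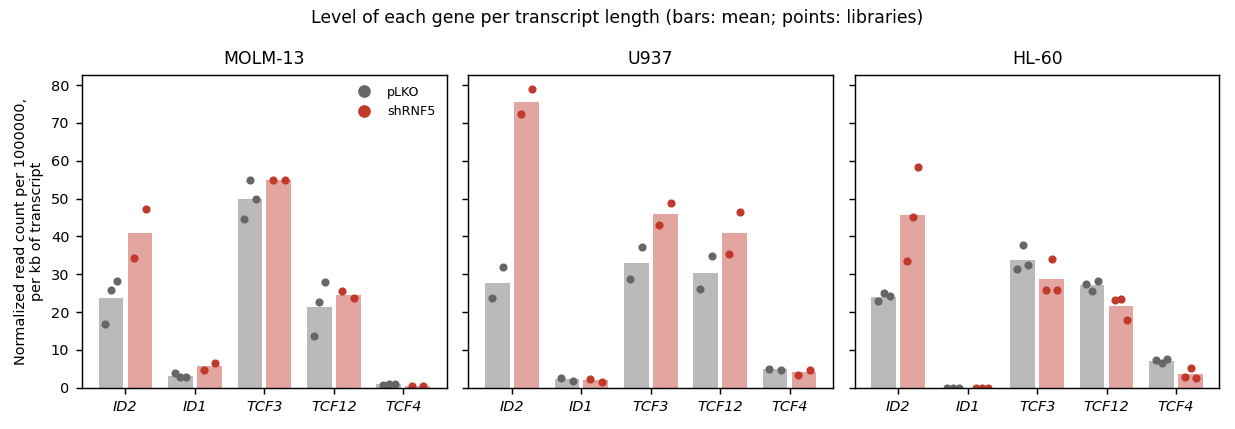
Level of each gene (x axis) as normalized read count per 1000000 of the library sum and per kb of canonical transcript (y axis, from 0) in each line, with bars for the mean and points for libraries. ID2 stands under TCF3 with pLKO in each line, and in U937 both shRNF5 libraries of ID2 (72.3 and 78.8) stand above those of TCF3.

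Within single libraries, the share of ID transcripts in the sum of ID and E protein levels per kb was 25.9% to 28.3% in the MOLM-13 controls and 32.6% and 40.5% with shRNF5. In U937, it was 30.4% and 30.5% with pLKO and 47.7% and 44.6% with shRNF5. In HL-60, the share was 25.9% to 26.4% with pLKO and 39.3%, 41.8% and 55.8% with shRNF5. The controls of the 3 lines thus lay within a narrow band, and every shRNF5 library lay above the controls of its line. Without division by length, the shares were lower, 7.41% to 9.18% over all controls and 10.5% to 23.2% over all shRNF5 libraries, and again did not overlap. These shares are sums over the genes already described and were not tested. They are shares of RNA. The amounts of ID and E protein were not measured, so the shares do not give how much E protein was free. ID2 made up 81.7% to 98.0% of the measured ID level in MOLM-13 and U937. In HL-60 it was the only ID gene with a value, since the others failed the filter, and its share there cannot be given.

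The ratio of ID2 to TCF4, taken from normalized read counts, which compares libraries within a line and not the abundance of the genes, was 4.03 to 4.63 in the MOLM-13 controls and 14.2 and 14.8 with shRNF5. In U937, it was 0.773 and 1.07 with pLKO and 3.34 and 2.69 with shRNF5. In HL-60, it was 0.511 to 0.618 with pLKO and 1.87, 1.40 and 3.83 with shRNF5. TCF4 as a share of the E protein level per kb was 1.15% to 1.25% in the MOLM-13 controls and 0.486% and 0.651% with shRNF5. It was 8.23% and 6.26% against 4.27% and 4.72% in U937, and 9.39% to 11.05% against 5.33% to 8.30% in HL-60. Since ID2 was higher and TCF4 lower without overlap in every line, the ratio had to separate the constructs. The ratio and the TCF4 share were not tested and are not independent evidence.

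**Figure D4:**
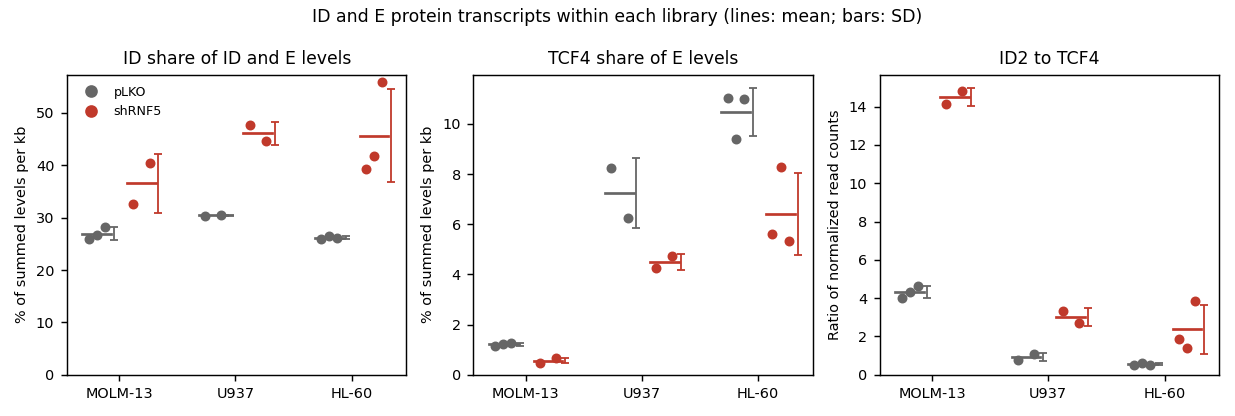
Left, ID share (%) of the summed ID and E protein transcript levels per kb. Middle, TCF4 share (%) of the E protein transcript levels per kb. Right, ratio of ID2 to TCF4 normalized read counts. Points are libraries, by line (x axis) and construct, with the mean as a line and the SD as a bar. In each panel the shRNF5 libraries do not overlap the pLKO libraries of their line.

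ID2 was the gene called in more than 1 line, so the genes that varied most like it were sought among 9625 genes with a mean of at least 50 in each line. Likeness was the root mean square difference of log2 values, each centred on the mean of its line, over the 15 libraries. The nearest were the antisense gene ZBTB11-AS1 at 0.22, KLF10, a zinc finger factor induced by TGF-beta, at 0.231 and the membrane protein gene PLP2 at 0.232, against a median of 0.625 over all 9625 genes. The log2 fold changes of KLF10, with MOLM-13 first and HL-60 last, were 0.49, 1.00 and 0.60 and those of PLP2 were 0.58, 1.15 and 0.60, and both genes rose by the call in U937 and HL-60. ZBTB11-AS1, at 0.67, 1.13 and 0.92, rose in HL-60. These genes were picked for varying like ID2 over the same libraries, constructs included, so their rises are not independent evidence. A gene constant within each line would score 0.582 here, the root mean square of ID2 itself. Whether the counting used strand is not stated, so reads of ZBTB11-AS1 and of ZBTB11 cannot be told apart where they overlap.

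Genes of the ID and E protein network were grouped in 6 lists and counted by the same call. The first holds proteins that bind IDs or set their turnover, 15 genes with ID4. In MOLM-13 0 rose and 1 fell among 14 tested. In U937 1 rose and 0 fell among 13, and HL-60 had 2 rises and 2 falls among 13. This is 7.14%, 7.69% and 30.8% called against 2.04%, 15.7% and 25.9% of all genes, with median log2 fold changes of 0.09, 0.20 and 0.16 against about 0 for all genes. RBL1, a retinoblastoma family member, rose by 0.99 in U937. In HL-60, RBL2 of the same family rose by 0.45 and STUB1, a ubiquitin ligase, by 0.65, and ASB2, a ubiquitin ligase subunit that targets E proteins, fell by 1.34 from a low level of 31.3 ± 10.3 (SD, n = 3). RB1 and USP1, the deubiquitinase that stabilizes IDs, passed in no line.

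Of 30 tissue-restricted bHLH partners, 29 were found by symbol, with 6 tested for MOLM-13, 4 for U937 and 5 for HL-60. By the limma call, 0 passed in MOLM-13 and 0 in U937. In HL-60, 2 rose, 40% against 25.9% of all genes. These were OLIG1, a factor of the oligodendrocyte lineage, which went from 208 ± 13.2 to 1171 ± 363.2 (SD, n = 3) with a log2 fold change of 2.45, and ATOH8, at 5.67 ± 0.58 and 23 ± 4.6, with a log2 fold change of 1.83 on few reads. LYL1, the blood-restricted partner, did not pass, with log2 fold changes of -0.06, -0.20 and 0.42 in MOLM-13, U937 and HL-60. Cofactors of E proteins numbered 16. In MOLM-13, 0 of 13 were called, while U937 had 2 rises and 2 falls among 14 and HL-60 had 1 rise and 3 falls among 13, with median log2 fold changes of 0.45, 0.10 and 0.03. The shares called were 0%, 28.6% and 30.8% against 2.04%, 15.7% and 25.9% of all genes. EP300, the acetyltransferase recruited by E protein activation domains, rose by 1.15 in U937 and fell by 0.66 in HL-60. RUNX1, a core hematopoietic factor, rose by 1.24 in U937, where KAT2A, an acetyltransferase, fell by 1.03 and CBFA2T2, a corepressor, fell by 0.99. In HL-60, ZEB1, a repressor that binds E-boxes, fell by 0.83 and GATA2, a stem cell factor, fell by 0.75, and KAT2B, an acetyltransferase, rose by 0.56.

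BMP and TGF-beta signalling, which controls ID genes, was covered by 36 genes. Of 27 tested in MOLM-13, 1 rose and 0 fell. Of 25 tested for U937, 2 rose and 2 fell, and of 27 for HL-60, 4 rose and 3 fell. The shares called, 3.7%, 16% and 25.9%, stood beside 2.04%, 15.7% and 25.9% of all genes. INHBA, an activin subunit, rose in MOLM-13 from 2 ± 1.7 (SD, n = 3) to 43.5 ± 17.7 (SD, n = 2), a fold that depends on the pseudocount. In U937, NOG, a secreted BMP antagonist, fell by 2.14, from 343 ± 82.0 to 77 ± 19.8 (SD, n = 2), and SMAD3, a TGF-beta signal transducer, fell by 1.22, while the receptors TGFBR2 and TGFBR1 rose by 1.27 and 0.94. In HL-60, the activin receptor ACVR2B fell by 1.17, from 1212 ± 118.8 to 550.3 ± 147.8 (SD, n = 3), BMPR1A fell by 0.49 and ENG fell by 0.44, while ACVR1, BMPR2 and SMAD4, the shared SMAD partner, rose by 1.045, 0.56 and 0.53. SMAD6 and SMAD7, the feedback inhibitors that BMP and TGF-beta signals induce, passed in no line.

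Lymphoid and dendritic genes under E proteins formed a list of 40, of which 20 were tested for MOLM-13, 21 for U937 and 17 for HL-60. There were 0 rises and 2 falls in MOLM-13 (10% called). U937 had 2 rises and 2 falls (19%) and HL-60 had 6 rises and 1 fall (41.2%). Over all genes these shares were 2.04%, 15.7% and 25.9%, so that of U937 was near the background. The medians were -0.10, -0.07 and 0.31. BLNK, the adaptor of the B cell receptor, fell by 1.56 in MOLM-13, from 147 ± 24.2 (SD, n = 3) to 49 ± 8.5 (SD, n = 2). It fell by 1.36 in U937, from 316 ± 65.1 to 121.5 ± 13.4 (SD, n = 2). In MOLM-13, NRP1, a receptor found on plasmacytoid dendritic cells, also fell by 0.87, whereas it rose by 0.53 in HL-60 and had a log2 fold change of 0.98 in U937 that did not pass. In U937, RUNX2 fell by 1.11 and NOTCH1, a receptor of T cell fate, rose by 1.14, while IL7R, the interleukin 7 receptor, rose to 74 ± 11.3 from 8 ± 11.3 (SD, n = 2). In HL-60, IGLL1, a surrogate light chain gene, rose by 1.57, from 353.7 ± 232.3 to 919.7 ± 177.3 (SD, n = 3), and IL3RA and SOCS1 rose from means under 10 by 3.36 and 2.68. FOXO1, a forkhead factor of early B cells, fell by 0.89.

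The list of 14 cell cycle genes under E proteins and IDs held the largest shares called of the 6 lists, at 16.7% of 12 tested for MOLM-13, 35.7% of 14 for U937 and 85.7% of 14 for HL-60, beside 2.04%, 15.7% and 25.9% of all genes. MOLM-13 had 2 rises and 0 falls, U937 had 4 rises and 1 fall and HL-60 had 8 rises and 4 falls, with medians of 0.30, 0.39 and 0.63. The direct comparison of these shares with those of other genes was not tested, and the study's own account had drawn attention to members of this list in the same libraries, so it is not independent evidence. CDKN1A, the p21 inhibitor that TCF3 activates, rose by 1.30 in MOLM-13, by 2.54 in U937 and by 1.82 in HL-60, where its control value was only 8.67 ± 2.89 (SD, n = 3). In HL-60, CDKN1C rose by 2.63 and CDKN2D by 1.81, while MYC, a driver of proliferation, fell by 1.28, from 24774 ± 4319.5 to 10172 ± 1316.7 (SD, n = 3), CCND1 fell by 1.16 and CCND2 fell by 0.91. CDKN2D also rose in U937, by 0.93, and had a log2 fold change of 1.14 in MOLM-13 that did not pass. CCND1, a D-type cyclin, rose by 1.29 in MOLM-13. In U937, CCND3 rose by 2.18 and CCNE1 by 1.78, and CDKN2A fell by 1.07. In HL-60, by contrast, CCNE1 fell by 0.70, while CCND3 rose by 0.77 and E2F1 by 0.48. The summed level of the 8 myeloid markers moved beside these changes in HL-60, at 7260 to 8870 per 1000000 of the library sum with pLKO and 9900 to 14200 with shRNF5, and in U937 the other way, at 1960 to 2380 and 1460 to 1650, while it overlapped in MOLM-13. MPO made up most of the HL-60 sum, at 120630 ± 13233 with pLKO and 184750 ± 37630 with shRNF5 (SD, n = 3). Of the 8 markers, 3 rose in HL-60 (MPO, ELANE and LYZ) and CD33 fell, with a median log2 fold change of 0.09. The libraries of the constructs overlapped for LYZ there. In U937 0 rose and 2 fell (ELANE and CSF3R) and in MOLM-13 0 were called. The part of the markers in the results for ID2, TCF4 and the lists was not tested.

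**Figure D5:**
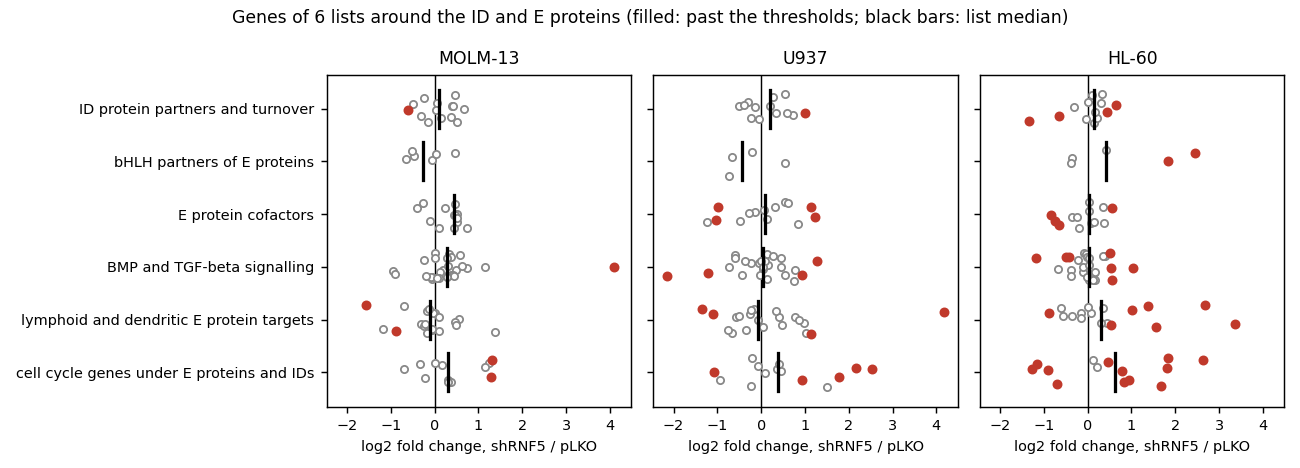
The log2 fold change (x axis, shRNF5 over pLKO) of each tested gene of the 6 lists (y axis; vertical scatter within a list has no meaning) in each line, with called genes in red and list medians as black bars. The cell cycle list has the most called genes for its size in each line, with 12 of 14 called in HL-60.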

How the data were processed

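RNA-seq libraries of MOLM-13, U937 and HL-60 with pLKO or shRNF5 were grouped by their labels, 15 in all. The authors used STAR for mapping to hg19, featureCounts for gene counts and edgeR within SARTools for normalization in each line, and they deposited these values rounded to whole numbers, which makes them a score and not counts. No count test was therefore run. In each line, limma 3.58.1 in R 4.3.3 was fitted to log2(value + 1), with construct as the term and empirical Bayes with a trend, over the genes not at 0 throughout that line. Differences between lines were fitted over all libraries. The step between neighbouring rounded values gave an estimate of library depth, since their sum is not a depth, and no counting interval is given. The fits and the depth estimate were tested on simulated data. Simulated log2 changes of 1 in either direction were called in 79% of cases for MOLM-13, 40.8% for U937 and 92.8% for HL-60. False calls were 12.4%, 12.9% and 10.9% of all calls in the same order. A gene not called in U937 may therefore still have changed. No pair of libraries was identical. Positions, lengths and promoters came from GENCODE annotation and the GRCh37 genome. The members and gene lists were chosen with earlier results of these data known. Genes named from the lists are, in each line, up to 3 called rises and 3 called falls with the largest log2 fold changes and no overlap between constructs. LYL1, RB1, USP1, SMAD6 and SMAD7 were named after their values were seen. So were NRP1 in U937 and HL-60, CCNE1, CCND3 and E2F1 in HL-60 and CDKN2D in MOLM-13 and U937. The result of a single gene that this rule names is not reported here. Whether replicate numbers pair the libraries could not be settled, and they were not used as a block in the main fits. Alternatives were pseudocounts of 0.5 and 10, a mean of at least 10, an adjusted p under 0.05, no trend, another scaling, unadjusted p-values, one fit over all libraries, a replicate block and leaving out each library.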

Additional observations from a re-analysis of the deposited data

Results flagged for a closer look

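Differences in response between U937 and HL-60 passed the test for 3 of the 4 genes that could be tested. In log2 fold change, U937 minus HL-60, they were 0.76 for TCF3, 0.81 for TCF12 and 0.86 for TCF4. TCF3 and TCF12 were higher with shRNF5 in U937 and lower in HL-60, without passing in either line alone, and TCF4 fell in HL-60. For TCF3, the libraries of the constructs overlapped in HL-60. In this pair of lines, 37.2% of all genes passed the same test.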

How the results depend on the processing

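ID2 and TCF4 in HL-60 and the TCF3 difference between U937 and HL-60 kept direction and call in every alternative run. In MOLM-13, the 266 called genes became 39 at an adjusted p under 0.05, 55 without the trend, 1973 at unadjusted p under 0.05, 598 in one fit over all libraries and 1 to 872 when single libraries were left out (872, 1 and 41 without pLKO replicates 1, 2 and 3, 6 and 2 without shRNF5 replicates 1 and 2), and the 0 called of the 6 genes became 3 at unadjusted p, 1 in one fit and 0 to 1 with libraries left out. In U937, 2062 became 824, 475, 3568, 5239 and 0 to 2369 (0 without pLKO replicate 2 or shRNF5 replicate 1, 6 without shRNF5 replicate 3), and the 1 called gene became 2 at unadjusted p, 2 in one fit and 0 to 1. In HL-60, 3251 became 1970 to 3413 with libraries left out (1970 without pLKO replicate 3, 1991 without shRNF5 replicate 3). The number of the 6 genes differing between U937 and HL-60 fell from 3 to 1 at an adjusted p under 0.05 and to 1 without the trend, and ran from 1 to 3 with libraries left out, while between MOLM-13 and U937 it ran from 0 to 1, the 1 being ID2 without MOLM-13 pLKO replicate 1. Signs turned with single libraries left out for TCF12 in MOLM-13 (-0.048 to 0.44, below 0 without pLKO replicate 1), for ID1 in U937 (-0.39 to 0.24, above 0 without pLKO replicate 2 or shRNF5 replicate 3), for the TCF4 difference between MOLM-13 and HL-60 (-0.083 to 0.42, below 0 without MOLM-13 pLKO replicate 1, MOLM-13 shRNF5 replicate 2 or HL-60 shRNF5 replicate 3) and for that of ID2 (-0.34 to 0.094, above 0 without MOLM-13 pLKO replicate 3, MOLM-13 shRNF5 replicate 1 or HL-60 shRNF5 replicate 3), none of them called. Leaving out a library leaves fewer samples, and 1 in an arm in U937 and for MOLM-13 shRNF5, where the lone library is assumed to vary like the others, and the cause was otherwise not tested.

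A replicate block gave 738 called genes in MOLM-13 and 1 of the 6, ID2 at 0.91 with a limma adjusted p of 0.0458. Deviations of same-numbered libraries correlated across genes at -0.173 and -0.53 in MOLM-13 and at 0.505, 0.156 and -0.109 in HL-60, where the block changed no call of the 6 genes. With 2 shRNF5 libraries in MOLM-13, their deviations from the construct mean mirror each other. In HL-60, libraries of unlike number correlated at -0.596 to 0.396. These values cannot settle whether the numbers pair the libraries. No paired analysis was possible in U937 because its constructs share only number 3. ID1 rests on few reads, and genes listed at 0 could not be tested.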
